A study of Mus musculus with 4 samples.

Results

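The genes described here are 10 that serve protein folding in the endoplasmic reticulum (ER) and the cytosol, out of 32285 gene identifiers counted in nuclei of the mouse hippocampus. They are Calr, Hspa5, Hsp90b1, Pdia3 and Pdia4 of the ER lumen, the stress sensor Atf6 and the transcription factor Xbp1, and the cytosolic Hspa8, Hsp90aa1 and Hsph1. All 10 symbols were found in each of the 4 libraries. They were chosen by their summed counts and ratios between these same libraries, which were already known, so their levels and ratios here are descriptions and none is a test. Atf6 and Xbp1 control chaperone genes and are not chaperones themselves, so the set holds 8 chaperones and folding enzymes and 2 regulators.

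Nuclei came from snap-frozen hippocampus of female C57BL/6J mice that were 8 weeks old when the experiment began and were followed for 10 weeks. The 4 groups were APPNL-G-F mice with exercise, APPNL-G-F mice without exercise, WT mice with exercise and WT mice without exercise, with 1 library each. APPNL-G-F mice are a knock-in model, called the knock-in here, whose own App gene was given human amyloid-beta residues and disease mutations. The titles and the treatment label set the exercise groups apart, whereas the treatment protocol speaks of a running wheel for every sample, and the number of animals per library is not given. The design text also names open-chromatin sequencing, which was not analysed here.

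In the ER lumen, Hspa5 (BiP) binds unfolded chains, Hsp90b1 (Grp94) folds a narrower set of client proteins, and Calr (calreticulin) holds sugar-bearing chains while its partner Pdia3 (ERp57) forms their disulfide bonds. Pdia4 (ERp72) is a second disulfide isomerase. When unfolded protein builds up, Atf6 is cut in the Golgi to release a transcription factor, and the messenger RNA of Xbp1 is spliced by Ire1 to encode another. Both act on promoters of ER chaperone genes, many of which carry an ER stress element (ERSE). In the cytosol, Hspa8 (Hsc70) is the Hsp70 that cells make without stress and that also strips clathrin from synaptic vesicles, Hsp90aa1 is the inducible Hsp90 and Hsph1 (Hsp105) releases nucleotide from Hsp70. Genes of the heat shock response carry heat shock elements, repeats of GAA and TTC bound by Hsf1.

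Promoter stretches are shown for the 3 members whose windows held a full ERSE and for the 1 member with a heat shock element. These motifs are the textbook link between the 2 stress responses and such genes. Over neuron classes and libraries the Pearson r of their levels was 0.891 for Calr with Hsp90b1 and -0.363 for Hspa5 with Hsph1. Hspa5 had 0.594 with Calr and 0.42 with Hsp90b1, and Hsph1 had 0.484 with Calr and 0.559 with Hsp90b1. The pairs thus did not sort by motif. The sequences are from RefSeq on GRCm38.p6, run 5′ to 3′ on the gene's own strand, and capitals mark the motif on either strand. Hspa5 is on the plus strand at chr2:34771975-34772093. Calr is on the minus strand at chr8:84847025-84847143. Hsp90b1 is on the minus strand at chr10:86705533-86705656. Hsph1 is on the minus strand at chr5:149636266-149636353.
Hspa5: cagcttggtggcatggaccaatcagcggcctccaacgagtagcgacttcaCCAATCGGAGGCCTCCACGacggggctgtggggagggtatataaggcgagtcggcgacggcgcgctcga
Calr: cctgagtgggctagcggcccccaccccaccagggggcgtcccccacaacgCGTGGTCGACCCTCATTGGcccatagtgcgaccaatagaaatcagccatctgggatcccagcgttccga
Hsp90b1: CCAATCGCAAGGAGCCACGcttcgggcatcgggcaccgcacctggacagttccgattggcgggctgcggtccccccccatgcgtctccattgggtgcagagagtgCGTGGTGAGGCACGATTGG
Hsph1: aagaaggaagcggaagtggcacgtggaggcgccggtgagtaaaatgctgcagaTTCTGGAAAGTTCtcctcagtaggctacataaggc
The RefSeq table held 7 of the 10 members in 8 windows, each from 250 bases before to 50 bases after a gene start, and 32851 promoters in all. Promoters of Atf6, Hspa8 and Hsp90aa1 were not used here. The ERSE was searched on both strands as CCAAT, 9 bases of any kind, and CCACG. It occurred in 39 of the 32851 promoters (0.119%) and in 3 of the 7 members, once in Hspa5, where its first base lay at -65 from the gene start, once in Calr, with its first base at -162, and 2 times in Hsp90b1, the first at -212. The heat shock element of 3 units was searched as TTC, 2 bases, GAA, 2 bases and TTC, and as the same pattern with GAA outside. It occurred in 198 promoters (0.603%) and, among the members, in Hsph1, at 16 and 37 bases from its 2 listed starts. The ERSE-II (ATTGG, 1 base and CCACG, in 0.0365% of promoters) and TGACGTGG (UPRE, 0.676%) were in none of the 7 members. CCAAT alone, which overlaps the ERSE, was in 37.4% of promoters and 6 of 7 members, and CCACG alone in 32.8% and 5 of 7. A match describes these letters only, and Xbp1 and Pdia3, which lack an ERSE match in this window, are known to be induced by ER stress in mammals.

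The knock-in library with exercise held 9466 barcodes and 76111556 UMIs (unique molecular identifiers, 1 per captured RNA molecule), the knock-in library without exercise 10453 and 64158446, the WT library with exercise 7203 and 66573909, and the WT library without exercise 11514 and 91676884. Any pair of libraries shared 20 to 42 barcodes. Clusters of 4 neuron classes (inhibitory, CA1, CA3 and dentate granule), oligodendrocytes and microglia carried the markers of their names. The knock-in library without exercise stood apart by the nuclear RNA Malat1, which over kept nuclei took 3.34% of UMIs in the knock-in with exercise, 9.53% in the knock-in without exercise, 6.05% in WT with exercise and 3.20% in WT without exercise. The knock-in library with exercise stood apart by clustering, since 96.1% of its dentate granule nuclei formed a cluster that was 88.8% from this library. Oligodendrocytes also fell into clusters that were mostly 1 library each, 91.5% from the knock-in with exercise in one and 93.8% from the knock-in without exercise in another. App stood at 525 counts per 1e+06 UMIs (CPM) in the knock-in with exercise, 484 in the knock-in without exercise, 472 in WT with exercise and 513 in WT without exercise, and a count beside the 3′ end does not tell the knock-in allele apart.

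Levels are UMIs of a gene summed over a class in 1 library, per 1e+06 UMIs of that class (CPM). Each carries an exact Poisson 95% interval that covers counting error only, and not the spread between animals or library preparations. Ratios between 2 libraries are log2 ratios of CPM with the exact conditional binomial 95% interval. A ratio of 0.5 or more in size is counted as past the fold. Shares of all genes past the fold are given for CPM only. In UMIs per nucleus, the difference in depth between 2 libraries moves every gene of a class alike. Counts of members past the fold on that scale have no such share beside them. With 1 library per group no difference has a replicate check, and in summed nuclei fewer transcripts per nucleus and fewer nuclei of a subtype cannot be told apart.

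Of the 10 genes, 9 had their highest mean level in CPM in a glial class or in the cluster with astrocyte markers, also with microglia left out. In UMIs per nucleus Hsp90aa1 instead held 0.303 to 0.532 in oligodendrocytes against 0.561 to 0.988 in CA3 neurons. Calr held 0.1035 to 0.177 in oligodendrocytes against 0.227 to 0.447 in CA1 neurons on that scale. The order thus depended on the scale. Averaged over the 4 libraries, Hsp90aa1 stood at 226 ± 93.9 CPM in oligodendrocytes, against 57.4 ± 14.3 CPM in granule neurons (SD, n = 4 libraries of 4 groups). Hsp90b1 was at 152 ± 38.7 CPM in microglia, a mean that includes 6 UMIs in the 24 nuclei of WT with exercise. Its range over libraries in oligodendrocyte precursors, 74.9 to 96.0 CPM, lay above that of every neuron class. The highest neuron class was inhibitory neurons, at 58.2 to 64.4 CPM. Calr in oligodendrocyte precursors, 43.8 to 71.2 CPM, likewise lay above CA1 neurons at 20.8 to 43.1 CPM. For Hspa5, Pdia3, Pdia4, Hspa8, Hsp90aa1, Xbp1 and Hsph1 every class overlapped the next in the order of means, so for them this order is not resolved between neighbours. Hsph1 was highest in oligodendrocyte precursors at 51.8 ± 8.06 CPM with its other classes overlapping, and microglia are not ranked for it because WT with exercise had 0 UMIs in 24 nuclei.
In CPM Atf6 ran the other way. It was highest in dentate granule neurons, where its 4 libraries held 220 to 247 CPM and did not overlap the next class, microglia, at 166 to 202 CPM. It was lowest in inhibitory neurons at 86.4 ± 8.26 CPM, and CA3 neurons at 138 to 194 CPM lay above CA1 neurons at 111 to 131 CPM. In UMIs per nucleus Atf6 held 1.08 to 1.75 in granule, 1.47 to 2.69 in CA3 and 1.94 to 3.64 in CA2 neurons. Oligodendrocytes at 0.126 to 0.385 lay below inhibitory neurons at 0.548 to 1.08 on that scale. Atf6 spans 163.098 kb, against 5.085 to 24.913 kb for the other 9 genes. Per kilobase of gene in CA1 neurons of WT mice without exercise, Calr was highest at 8.46 CPM per kb, followed by Hsp90aa1 at 4.65, Hspa8 at 3.99, Hspa5 at 3.60, Hsp90b1 at 3.103, Xbp1 at 3.08, Hsph1 at 2.01 and Pdia3 at 1.74 CPM per kb. Atf6 at 0.776 and Pdia4 at 0.572 CPM per kb were lowest.

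**Figure D1:**
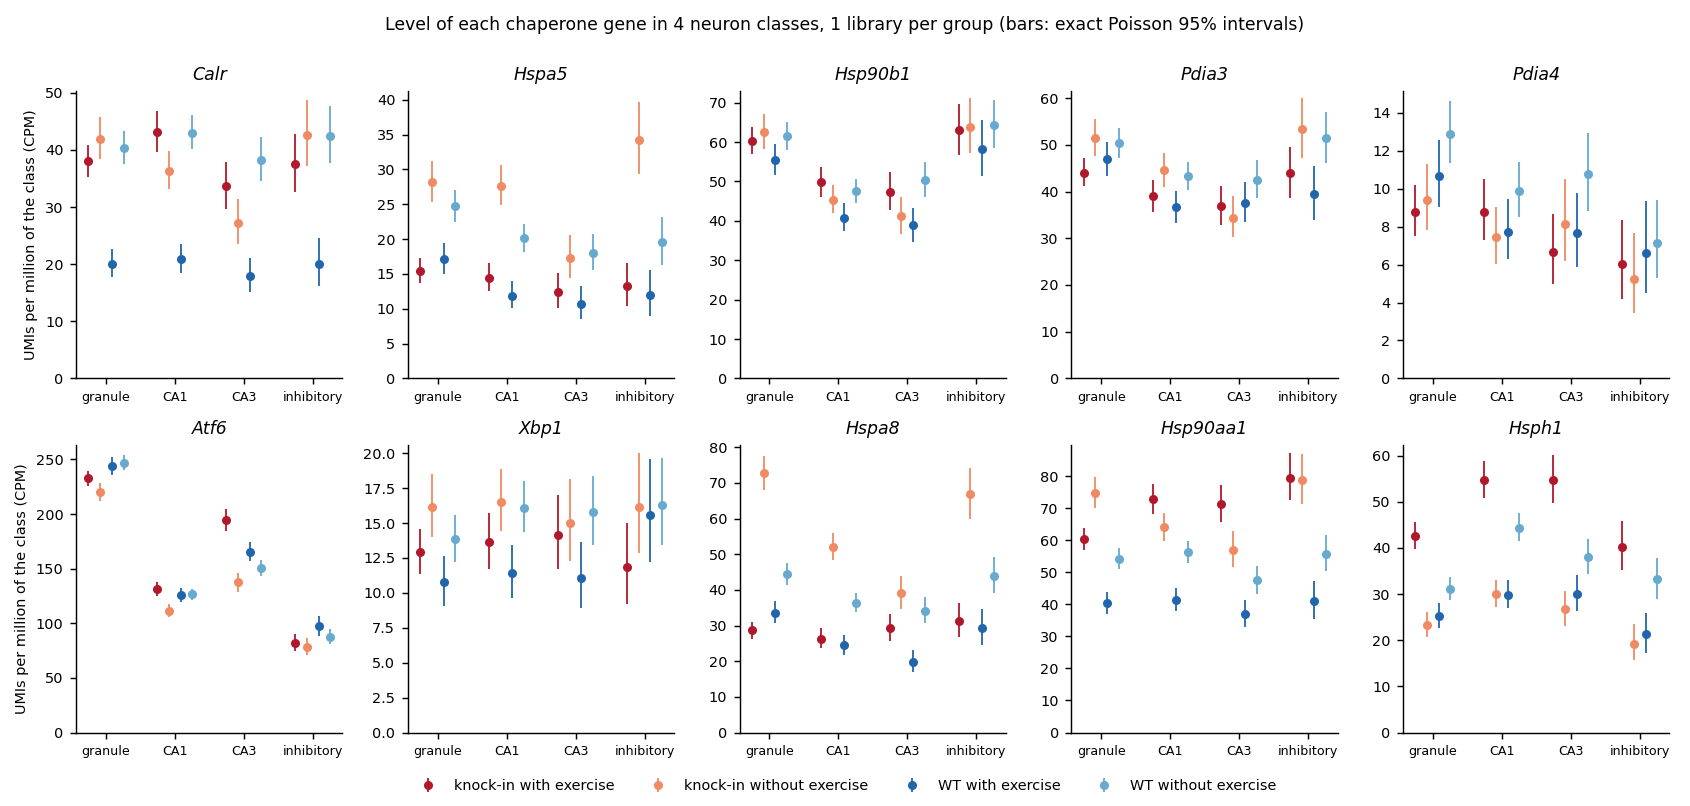
Level of each gene (CPM, vertical axes from 0) in dentate granule, CA1, CA3 and inhibitory neurons. Each point is 1 library and bars are exact Poisson 95% intervals. Calr is lowest in WT with exercise in all 4 classes, Hspa8 is highest in the knock-in without exercise, and Hsph1 is highest in the knock-in with exercise.

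Calr (ENSMUSG00000003814, chromosome 8, 84841850 to 84846934, GRCm38) was lowest in WT with exercise. In CA1 neurons it stood at 43.1 CPM in the knock-in with exercise, 36.4 in the knock-in without exercise, 20.8 in WT with exercise and 43.0 in WT without exercise. In granule neurons the levels were 38.0, 41.9, 20.1 and 40.4 CPM in the same order of groups. WT with exercise was lowest in all 4 neuron classes, and in granule neurons the interval of the nearest library, 35.3 to 40.8 CPM in the knock-in with exercise, lay clear of the 17.8 to 22.6 CPM in WT with exercise. The gap between WT with exercise and WT without exercise was alike in size across cell types, with a log2 ratio of -1.01 (interval -1.21 to -0.81) in granule, -1.05 (-1.25 to -0.84) in CA1, -1.09 (-1.37 to -0.81) in CA3 and -1.09 (-1.44 to -0.75) in inhibitory neurons. It was -0.72 (-1.12 to -0.34) in oligodendrocytes. The knock-in with exercise against WT with exercise gave 1.05 (0.84 to 1.27) in CA1 neurons, in which the median of all genes was 0.26, and the ratio relative to that median was 0.79. The knock-in with exercise against the knock-in without exercise gave 0.24 (0.07 to 0.42) in CA1 neurons, and the knock-in without exercise against WT without exercise gave -0.24. Counted per nucleus, these 2 values were 0.65 and -0.48, and exercise in WT was -0.81 in CA1 neurons. In CA3 neurons Calr held 0.466 UMIs per nucleus in the knock-in with exercise, 0.291 in the knock-in without exercise, 0.274 in WT with exercise and 0.467 in WT without exercise, so on that scale the knock-in without exercise was about as low as WT with exercise.

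Hspa5 (ENSMUSG00000026864, chromosome 2, 34771970 to 34777547), whose promoter holds an ERSE like that of Calr, differed from Calr in the knock-in with exercise. In CA1 neurons it stood at 14.4 CPM in the knock-in with exercise, 27.7 in the knock-in without exercise, 11.9 in WT with exercise and 20.1 in WT without exercise. Both libraries with exercise were low, with intervals that overlapped each other and lay below those of both libraries without exercise. With exercise against without, the log2 ratio in the knock-in was -0.87 (-1.10 to -0.64) in granule, -0.94 (-1.20 to -0.69) in CA1, -0.47 (-0.87 to -0.08) in CA3 and -1.37 (-1.78 to -0.98) in inhibitory neurons. In WT it was -0.76 (-1.04 to -0.48) in CA1 neurons, -0.75 in CA3, -0.71 in inhibitory and -0.52 in granule neurons. Hspa5 was thus lower with exercise in all 4 neuron classes of both genotypes. With each nucleus thinned to 1500 UMIs, the WT ratios in granule and inhibitory neurons were -0.079 and -0.054, and with the granule nuclei of the shared cluster only, the knock-in ratio was -0.31. On the scale of UMIs per nucleus, the knock-in ratio was -0.30 in granule and -0.54 in CA1 neurons.

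Hsp90b1, the third gene with an ERSE match (ENSMUSG00000020048, chromosome 10, 86690209 to 86705509), differed little in CPM. In granule neurons it stood at 60.3 CPM in the knock-in with exercise, 62.7 in the knock-in without exercise, 55.4 in WT with exercise and 61.4 in WT without exercise. Its log2 ratios of CPM over the 4 neuron classes and 4 comparisons ran from -0.37 to 0.29, none past the fold. In UMIs per nucleus Hsp90b1 was past the fold upward for exercise in the knock-in in all 4 classes. It held 0.438, 0.516, 0.655 and 0.675 with exercise in granule, CA1, CA3 and inhibitory neurons, against 0.307, 0.356, 0.439 and 0.447 without. It shares 977 bases with Gm15344 on the same strand, which was counted too, so reads there may be assigned to either gene. Pdia3 (ENSMUSG00000027248, chromosome 2, 121413775 to 121438687) stayed within the fold in CPM in the same 4 classes as well. Its CA1 levels were 39.0 CPM in the knock-in with exercise, 44.5 in the knock-in without exercise, 36.6 in WT with exercise and 43.2 in WT without exercise. Pdia4 (ENSMUSG00000025823, chromosome 6, 47796141 to 47813430), the scarcest member, had 8.79 CPM in the knock-in with exercise, 7.44 in the knock-in without exercise, 7.74 in WT with exercise and 9.89 in WT without exercise in CA1 neurons. In granule neurons it was at 8.79 CPM in the knock-in with exercise, 9.44 in the knock-in without exercise, 10.7 in WT with exercise and 12.9 in WT without exercise, the highest.

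Each of the 2 regulators had CPM ratios mostly within the fold in the 4 main neuron classes. Atf6 (ENSMUSG00000026663, chromosome 1, 170704674 to 170867771) stood in CA3 neurons at 194 CPM in the knock-in with exercise, 138 in the knock-in without exercise, 166 in WT with exercise and 150 in WT without exercise. That difference between the knock-in libraries, 0.50 (0.38 to 0.62) and just short of the fold before rounding, was its largest in CPM in those 4 classes. In UMIs per nucleus this comparison was past the fold upward in all 4. The knock-in with exercise held 1.69, 1.36, 2.69 and 0.882 in granule, CA1, CA3 and inhibitory neurons. Without exercise the knock-in held 1.08, 0.873, 1.47 and 0.548. In subicular or cortical excitatory neurons, a smaller class, Atf6 stood at 83.2 CPM in the knock-in with exercise and 124 CPM in WT with exercise (-0.58, -0.91 to -0.25). Xbp1 (ENSMUSG00000020484, chromosome 11, 5520659 to 5525893) held 13.6 CPM in the knock-in with exercise, 16.5 in the knock-in without exercise, 11.4 in WT with exercise and 16.1 in WT without exercise in CA1 neurons. With exercise against without, the log2 ratio was -0.28 (-0.57 to 0.0086) for the knock-in, an interval that spans 0, and -0.50 (-0.80 to -0.21) for WT. In UMIs per nucleus the knock-in ratio turned to 0.12 and the WT ratio was -0.26. In CA3 neurons of WT it was past the fold at -0.51 (-0.89 to -0.12), and -0.19 in UMIs per nucleus. A count at the 3′ end does not tell spliced from unspliced Xbp1, nor cut from whole Atf6 protein.

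Hspa8 (ENSMUSG00000015656, chromosome 9, 40800984 to 40810087) was highest in CPM in the knock-in without exercise. Its level in granule neurons was 28.6 CPM in the knock-in with exercise, 72.7 in the knock-in without exercise, 33.6 in WT with exercise and 44.4 in WT without exercise. No library's interval reached that of the knock-in without exercise, 68.1 to 77.6 CPM. The knock-in with exercise against without gave -1.35 (-1.50 to -1.19) in granule, -0.98 (-1.17 to -0.80) in CA1, -0.41 (-0.67 to -0.16) in CA3 and -1.09 (-1.36 to -0.83) in inhibitory neurons. In UMIs per nucleus the knock-in with exercise held 0.208, 0.273, 0.406 and 0.336 in granule, CA1, CA3 and inhibitory neurons. Without exercise it held 0.356, 0.408, 0.4168 and 0.467. CA3 neurons thus differed little on that scale, and those of WT without exercise held 0.4165. After thinning, the log2 ratio between the knock-in libraries in CA3 neurons was 0.34, so its direction there changed with that setting. The knock-in without exercise against WT without exercise gave 0.71 (0.57 to 0.85) in granule, 0.52 (0.36 to 0.67) in CA1 and 0.61 (0.38 to 0.84) in inhibitory neurons, and 0.19 (-0.04 to 0.42) in CA3 neurons. Counted per nucleus, the first 3 of these were within the fold, at 0.29, 0.27 and 0.20. Exercise in WT gave -0.57 (-0.77 to -0.38) in CA1 neurons, and -0.34 in UMIs per nucleus. The last 500 bases of the Hspa8 transcript share 31-base words with 13 processed pseudogenes, up to 82.3% of them with one, so the assignment of its reads is uncertain.

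Hsp90aa1 (ENSMUSG00000021270, chromosome 12, 110690605 to 110702728) was lowest in WT with exercise, like Calr. In CA1 neurons it stood at 72.8 CPM in the knock-in with exercise, 64.1 in the knock-in without exercise, 41.2 in WT with exercise and 56.4 in WT without exercise. In CPM both knock-in libraries lay above both WT libraries in CA1, CA3 and inhibitory neurons and in granule neurons too, where the levels were 60.4, 74.7, 40.3 and 54.1 CPM in the same order of groups. Genotype with exercise gave 0.58 (0.44 to 0.73) in granule, 0.82 (0.66 to 0.98) in CA1, 0.95 (0.75 to 1.16) in CA3 and 0.95 (0.70 to 1.20) in inhibitory neurons. Relative to the median of all genes the granule and CA1 values were 0.39 and 0.56. Genotype without exercise gave 0.46 (0.34 to 0.59) in granule and 0.19 in CA1 neurons, and in CA1 the value was -0.057 in UMIs per nucleus.

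Hsph1 (ENSMUSG00000029657, chromosome 5, 149614287 to 149636376) was highest in the knock-in with exercise in all 4 neuron classes. In CA1 neurons it stood at 54.8 CPM in the knock-in with exercise, 30.1 in the knock-in without exercise, 29.8 in WT with exercise and 44.4 in WT without exercise. In CA3 neurons the levels were 54.8, 26.7, 30.1 and 38.1 CPM in the same order. On this scale the knock-in without exercise and WT with exercise were low and overlapped, WT without exercise lay between, and the knock-in with exercise lay clear above. In CPM exercise therefore ran in opposite directions. The ratio was 0.87 (0.68 to 1.07) in granule, 0.86 (0.69 to 1.04) in CA1, 1.04 (0.79 to 1.29) in CA3 and 1.06 (0.72 to 1.42) in inhibitory neurons of the knock-in. It was -0.30, -0.57 (-0.75 to -0.40), -0.34 and -0.64 (-0.99 to -0.29) in the same classes of WT. This difference between genotypes was not tested. After thinning, the knock-in value in CA1 neurons was 0.49, and in UMIs per nucleus the WT value there was -0.34. CA3 neurons of WT held 0.458 UMIs per nucleus with exercise and 0.464 without, and granule neurons of WT 0.181 and 0.205. Those of the knock-in held 0.759 with exercise and 0.285 without in CA3, and 0.309 and 0.114 in granule neurons. Per nucleus the knock-in without exercise was thus lowest in these 2 classes, and WT with exercise lay nearer to WT without exercise. In granule neurons of the shared cluster only, the log2 ratio in the knock-in was 0.19. That cluster holds 105 granule nuclei (3.88%) of the knock-in with exercise. In oligodendrocytes Hsph1 was at 45.0 CPM in the knock-in with exercise, 50.3 in the knock-in without exercise, 51.6 in WT with exercise and 55.6 in WT without exercise, with no ratio past the fold.

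**Figure D2:**
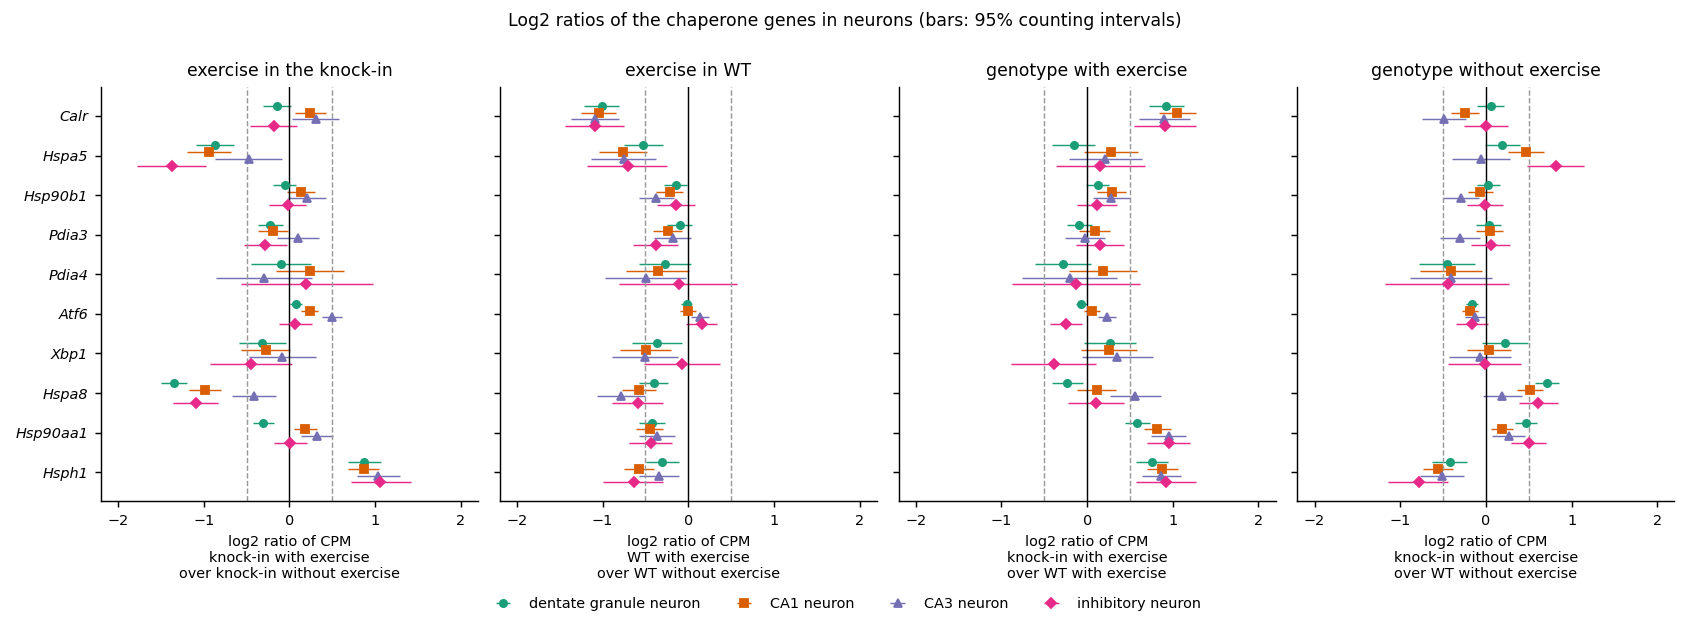
Log2 ratio of CPM (horizontal axes) of each gene in the 4 comparisons, with points for 4 neuron classes, 95% counting intervals as bars and dashed lines at the fold of 0.5. Calr lies near -1 in WT with exercise and near 1 for genotype with exercise, and Hsph1 lies right of 0 for exercise in the knock-in and left of 0 for exercise in WT.

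The counts over all 10 genes restate values already known when the genes were chosen and support nothing further. For exercise in the knock-in, 2 genes were past the fold downward and 1 upward in CA1 neurons, where 21.5% of all genes counted were past it downward and 29.2% upward. In granule neurons 2 were past it downward and 1 upward (background 23.8% and 26.4%), in CA3 neurons 1 upward and 0 downward (31.4% and 19.1%) and in inhibitory neurons 2 downward and 1 upward (20.6% and 28%). The genes past the fold downward were Hspa5 and Hspa8, and the one upward was Hsph1. In granule neurons the members' median was -0.18 in CPM and 0.39 in UMIs per nucleus, since a granule nucleus held 7260 UMIs in the knock-in with exercise and 4896 in the knock-in without exercise. On the scale of UMIs per nucleus, 6 genes were past the fold upward and 2 downward in CA1 neurons, and 3 upward and 1 downward in granule neurons. No share over all genes stands beside these counts, and the deeper nuclei of the knock-in with exercise raise every gene on this scale. For exercise in WT, all 10 genes had a ratio below 0 in granule and CA1 neurons, 2 of them past the fold in granule neurons (background 11.5% downward, 4.97% upward) and 4 in CA1 neurons (14.7% and 3.65%), which were Calr, Hspa5, Hspa8 and Hsph1. In CA3 and inhibitory neurons 9 of 10 were below 0 and 4 past the fold downward, with a background of 17.7% downward and 4.25% upward in CA3 and 14% and 5.29% in inhibitory neurons. None of the 10 was past it upward in these 4 classes. In UMIs per nucleus 2 were past it downward in CA1 and 1 in each of the other 3 classes, Calr in all 4. The members' median in CA1 neurons was -0.47, against -0.16 over all genes. The median of all genes was below 0 in each of these 4 classes, so most genes lay below 0 as well.
For genotype with exercise, Calr, Hsp90aa1 and Hsph1 were past the fold upward in granule (background 27.6%), CA1 (33.4%) and inhibitory neurons (30%), joined in CA3 neurons by Hspa8 (31.7%). None was past it downward, where the background was 9.66% in CA1 neurons, 9.19% in CA3, 9.52% in inhibitory and 11.8% in granule neurons. All 10 ratios were above 0 in CA1 neurons, and the members' median of 0.27 lay beside 0.26 over all genes. Most genes were thus above 0 there as well. For genotype without exercise, Hspa8 was the one gene past the fold upward in granule neurons (19%), and none was past it downward (11.1%). In CA1 neurons Hspa8 was past it upward (17.6%) and Hsph1 downward (14.2%), and in CA3 neurons Hsph1 downward (20.3%) and none upward (15%). In inhibitory neurons Hspa5, Hspa8 and Hsp90aa1 were past it upward (17.6%) and Hsph1 downward (12.1%). These counts depended on the scale. With UMIs per nucleus in place of CPM, genotype without exercise had no member past the fold upward in any of these 4 classes. Downward it had 2 members in CA1 neurons and 3 in every other class of the 4. No share over all genes is given on that scale. Exercise in WT and genotype with exercise share the library of WT with exercise, exercise in the knock-in shares a library with each genotype comparison, and genotype without exercise and exercise in WT share WT without exercise.

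Gene length moved with these ratios. Hspa8, Hspa5, Xbp1 and Calr are under 10 kb, and in granule neurons all genes under 10 kb had a median of -0.42 for exercise in the knock-in, against 0.22 for genes of 50 kb or more. For genotype without exercise these medians were 0.31 and -0.13. Calr did not follow its length class, at -0.14 and 0.05 in these comparisons, while Hspa8, at -1.35 and 0.71, went further than its class. In CA1 neurons the medians under 10 kb were -0.25 for exercise in the knock-in, -0.28 for exercise in WT, 0.30 for genotype with exercise and 0.24 for genotype without exercise.
Other measures moved as well. In CA1 neurons Malat1 took 3.43% of UMIs in the knock-in with exercise, 9.16% in the knock-in without exercise, 5.66% in WT with exercise and 2.97% in WT without exercise. UMIs per nucleus in CA1 were 10350, 7838, 10900 and 9275 and ribosomal protein genes held 1522, 2246, 1386 and 1667 CPM in the same order. The 10 oligodendrocyte markers summed to 219, 194, 105 and 145 CPM in CA1 neurons in that order and the 10 microglia markers to 37.4, 50.8, 25.9 and 28.3 CPM, with none of either list at 0. The cold-inducible Rbm3 stood at 63.6, 52.9, 42.0 and 62.5 CPM and Cirbp at 18.4, 18.4, 11.2 and 14.6 CPM in CA1 neurons of the same libraries, both lowest in WT with exercise. The part of length, depth, Malat1, glial RNA or the cold-inducible genes in the members' ratios was not tested.

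**Figure D3:**
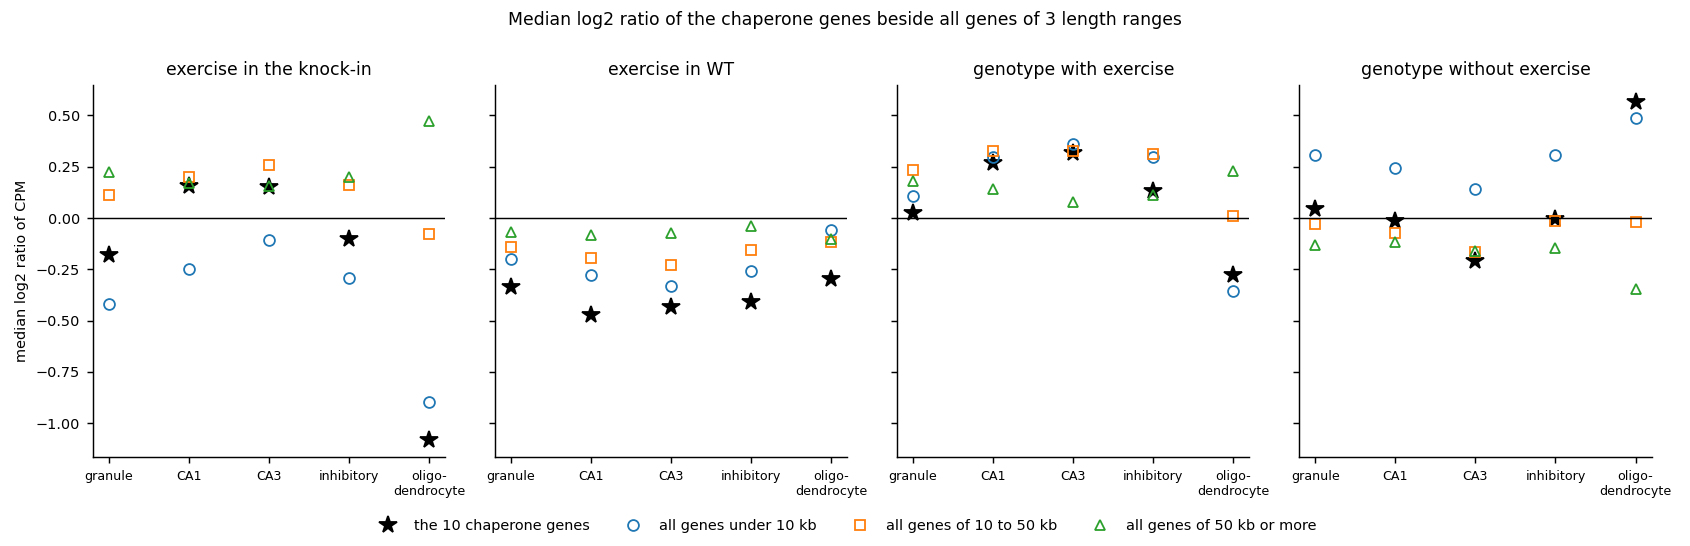
Median log2 ratio of CPM (vertical axis) of the 10 genes (stars) beside the medians of all genes under 10 kb, of 10 to 50 kb and of 50 kb or more, in 4 neuron classes and oligodendrocytes. Genes under 10 kb lie below longer genes for exercise in the knock-in and above them for genotype without exercise, most widely in oligodendrocytes, where the members' medians were -1.08 and 0.56.

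In oligodendrocytes, the myelin-forming glia, 7 of the 10 genes were highest in the knock-in without exercise, the exceptions being Atf6, Pdia4 and Hsph1. Hspa8 stood at 60.1 CPM in the knock-in with exercise, 285 in the knock-in without exercise, 133 in WT with exercise and 133 in WT without exercise. Hspa5 stood at 27.7, 95.2, 40.6 and 60.7 CPM and Hsp90aa1 at 163, 362, 163 and 217 CPM in the same order. For all 3 the interval of the knock-in without exercise lay above the other libraries. The knock-in with exercise against without gave -2.25 (-2.46 to -2.03) for Hspa8, -1.78 (-2.12 to -1.45) for Hspa5, -1.20 (-1.41 to -0.98) for Hsp90b1 and -1.01 (-1.27 to -0.76) for Calr. In that comparison 7 genes were past the fold downward (background 27.3%) and Atf6 upward at 0.59 (26.9%), and the members' median of -1.08 lay beside 0.03 over all genes and -0.90 over genes under 10 kb. Of the members only Calr, Hspa5, Xbp1 and Hspa8 are under 10 kb, so that length class does not match the whole set. An oligodendrocyte nucleus held 2976 UMIs in the knock-in with exercise and 1471 in the knock-in without exercise, and in UMIs per nucleus 2 genes were past the fold downward, Hspa8 at -1.23 and Hspa5 at -0.76, and 3 upward, Atf6, Hsph1 and Pdia4. On that scale Calr was at 0.0018 and Xbp1 at 0.25. Genotype without exercise had 6 genes past the fold upward (18.4%) and Atf6 and Pdia4 downward (19.8%), with a median of 0.56 beside 0.49 over genes under 10 kb. Counted per nucleus, 1 of these was past it upward, Hspa8 at 0.75. For genotype with exercise 3 were past it downward (18.9%) and none upward (24.4%), Hspa8 at -1.14, Hsp90b1 at -0.68 and Hspa5 at -0.55, and for exercise in WT 3 downward (17.3%) and none upward (6.65%), Pdia4 at -0.73, Calr at -0.72 and Hspa5 at -0.58. The interval of this Pdia4 ratio, -1.55 to 0.017, spanned 0. On the scale of UMIs per nucleus, none was past the fold downward for genotype with exercise and 4 were upward, while exercise in WT had 3 downward and none upward. None of the counts in UMIs per nucleus has a share over all genes beside it. Malat1 took 4.21% of oligodendrocyte UMIs in the knock-in with exercise, 16.2% in the knock-in without exercise, 9.60% in WT with exercise and 6.19% in WT without exercise, and ribosomal protein genes held 2347, 7149, 4338 and 3801 CPM. Their part in the members' levels was not tested, and the nuclei compared come from clusters that are mostly 1 library each.

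In the cluster with astrocyte markers, whose leading genes kept it from being named, 109 nuclei came from the knock-in with exercise, 64 from the knock-in without exercise, 343 from WT with exercise and 336 from WT without exercise. Calr stood there at 76.6, 141, 37.1 and 87.9 CPM in the same order, again lowest in WT with exercise. Exercise in WT gave -1.25 (-1.88 to -0.64) for Calr, with 2 of 8 genes counted past the fold downward (13.1%). Exercise in the knock-in had 6 of 8 past it downward (25.5%), and genotype without exercise 3 upward (19.9%). Of the 6, Pdia3 (-2.61 to -0.25) and Hspa8 (-1.69 to -0.29) had intervals below 0. Those of Calr, Hspa5, Hsp90b1 and Hsp90aa1 spanned 0. Calr among the 3 upward (-0.17 to 1.45) and Hsph1 for exercise in WT (-1.40 to 0.28) also had intervals that span 0. In UMIs per nucleus exercise in the knock-in had 1 downward and 2 upward, and genotype without exercise none upward and 1 downward. Microglia numbered 289 nuclei in the knock-in with exercise, 125 in the knock-in without exercise, 24 in WT with exercise and 118 in WT without exercise. Exercise in the knock-in gave -2.12 (-2.75 to -1.48) for Hspa8, -1.46 (-2.35 to -0.54) for Hspa5 and -1.11 (-1.82 to -0.37) for Calr in microglia, with 6 of 7 genes counted past the fold downward (23.1%). Among these 6, the intervals of Pdia3 (-1.34 to 0.11) and Hsp90aa1 (-1.21 to 0.017) spanned 0. A microglial nucleus held 3268 UMIs in the knock-in with exercise and 1592 in the knock-in without exercise, and in UMIs per nucleus the values were -1.08 for Hspa8, -0.42 for Hspa5 and -0.072 for Calr, with 1 of 7 past the fold downward and 1 upward. In the 24 microglia of WT with exercise Hspa5 had 0 UMIs, which allows up to 88.1 CPM, so its comparison there is not resolved at this depth.

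**Figure D4:**
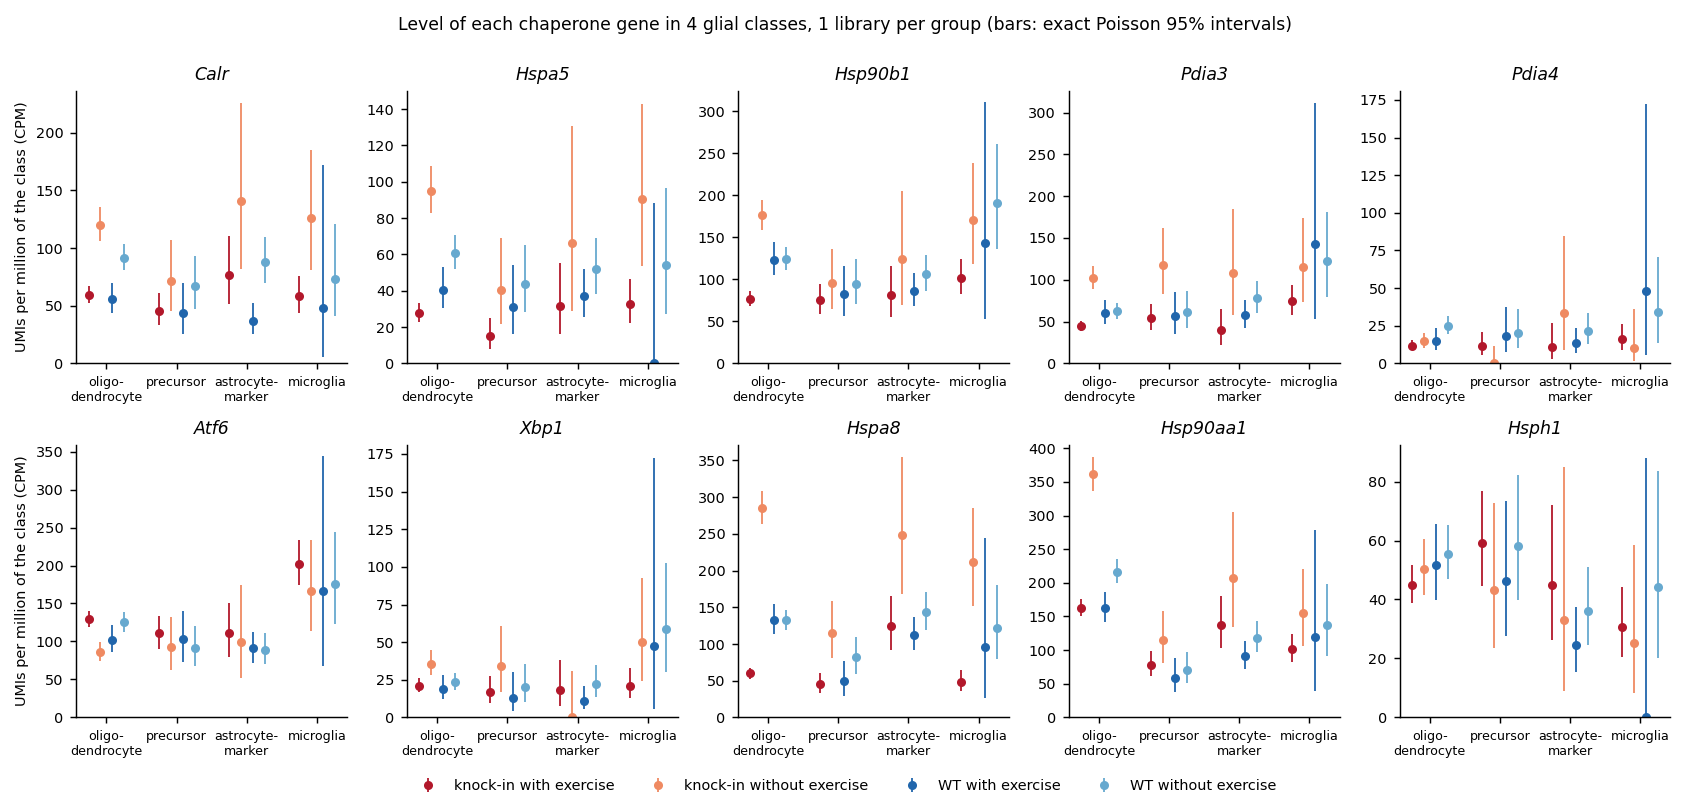
Level of each gene (CPM, vertical axes from 0) in oligodendrocytes, oligodendrocyte precursors, the cluster with astrocyte markers and microglia. Each point is 1 library and bars are exact Poisson 95% intervals, widest for the 24 microglia of WT with exercise. In oligodendrocytes Hspa8 reaches 285 CPM in the knock-in without exercise, above the other 3 libraries.

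Other genes of these pathways were described from 8 lists of 127 genes, chosen with results of these data known. Their ratios and medians are in CPM only and are not set beside genes of like length. The members' ratios changed between CPM and UMIs per nucleus, so those of the lists may change too. For exercise in WT, in CA1 neurons, 17 of 20 other ER chaperones and folding enzymes had a ratio below 0, 2 of them past the fold, and their median was -0.30. All 22 genes of the translocon, signal peptidase and oligosaccharyltransferase were below 0, 3 past the fold, with a median of -0.33, as were 19 of 20 co-chaperones and heat shock factors, 7 past the fold, with a median of -0.28. The 8 subunits of the chaperonin TRiC were all below 0, 1 past the fold, with a median of -0.33. Of 16 genes of ER-associated degradation 13 were below 0, 2 past the fold, and of 18 cytosolic and mitochondrial chaperones counted 16 were below 0, 3 past the fold. Of 14 sensors and factors of the unfolded protein response counted, 11 were below 0, with 2 past the fold in each direction. The median of all genes was -0.16 here, so most genes lay below 0 as well, and 14.7% were past the fold downward and 3.65% upward. The lowest were Ssr4, a translocon-associated subunit, at 16.9 CPM with exercise against 31.8 CPM without (-0.91), the Hsp40 Dnajb5 at 11.8 against 22.2 CPM (-0.91), the stress factor Atf4 at 5.74 against 10.4 CPM (-0.86) and the Hsp90 partner Fkbp4 at 6.62 against 11.9 CPM (-0.85). Among genes with at least 100 UMIs over both libraries the highest, Ube2j1 at 0.26, Pdia5 at 0.21, Ppid at 0.18 and Edem2 at 0.12, stayed within the fold.
For exercise in the knock-in in CA1 neurons, 21.5% of all genes were past the fold downward and 29.2% upward. Of the 20 other ER chaperones and folding enzymes 5 were past the fold downward and 5 upward, while 8 of 22 translocon genes were past it downward and none upward, with a median of -0.37 beside 0.11 over all genes. Of 20 co-chaperones and heat shock factors 8 were past it upward and 4 downward, with a median of 0.38. Lowest were the small heat shock protein Cryab at 1.76 CPM with exercise against 8.41 CPM without (-2.26, -2.96 to -1.61), the signal peptidase subunit Spcs1 at 3.37 against 11.4 CPM (-1.76), the secreted ER protein Manf at 13.03 against 42.7 CPM (-1.71) and the Hsp90 activator Ahsa1 at 9.96 against 29.4 CPM (-1.56). Highest were Dnajb5 at 32.4 against 12.4 CPM (1.39), Bag6, which guards exposed membrane segments, at 35.0 against 13.7 CPM (1.35), the ER ubiquitin ligase Syvn1 at 15.3 against 6.77 CPM (1.18) and Nploc4, a partner of Vcp, at 100 against 50.5 CPM (0.99). The 4 lowest in granule neurons were Cryab at -3.00, Spcs1 at -2.27, Ahsa1 at -1.62 and Manf at -1.58. Cryab is also abundant in oligodendrocytes.
For genotype with exercise, 9 of 20 co-chaperones and heat shock factors were past the fold upward and none downward in CA1 neurons (33.4% and 9.66% of all genes), with a median of 0.45 beside 0.26 over all genes. The 4 highest were Dnajb5 at 32.4 CPM in the knock-in against 11.8 CPM in WT (1.46), Bag6 at 35.0 against 14.5 CPM (1.27), Atf4 at 13.2 against 5.74 CPM (1.20) and the phosphatase Ppp5c, a partner of Hsp90, at 30.7 against 14.4 CPM (1.09). Manf was lowest at 13.03 CPM in the knock-in against 24.6 CPM in WT (-0.92). In granule neurons all 13 sensors and factors counted were above 0, 6 past the fold (27.6% of all genes), with a median of 0.49 beside 0.19 over all genes. Most genes were thus above 0 there as well. For genotype without exercise, 1 of the 20 other ER chaperones and folding enzymes was past the fold downward and 3 upward in CA1 neurons (14.2% and 17.6% of all genes), with a median of 0.014 beside -0.040 over all genes. Cryab was highest at 8.41 CPM in the knock-in against 2.77 CPM in WT (1.60), and Bag6 at -0.86, Dnajb5 at -0.84, Syvn1 at -0.82 and Nploc4 at -0.74 were lowest.

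The members did not vary as one group over the 16 values of 4 neuron classes in 4 libraries, with each class centred on its mean log2(CPM + 1). Of 45 pairs the highest Pearson r was 0.946, between Hspa5 and Hspa8, followed by 0.891 between Calr and Hsp90b1. The lowest were -0.601 between Hspa5 and Atf6 and -0.573 between Hspa8 and Atf6, and Hsph1 had -0.389 with Hspa8 and -0.363 with Hspa5. The 16 values come from only 4 libraries and share their depth, so each r describes how the libraries rank and carries no p.
Among 6555 genes with at least 400 UMIs in each of the 4 classes, the genes most like Calr were Fibp (r = 0.98), U2surp (0.978) and Gas5 (0.971). Those most like Hspa5 were Emc10 (0.965), Atp1b1 (0.963) and Slc25a27 (0.962), and like Hsp90b1 Top2b (0.953), Mto1 (0.938) and Sf3a3 (0.936). For Hspa8 they were Dhx30 (0.986), Emc10 (0.983) and Bsg (0.983), so Emc10 stood near both Hspa5 and Hspa8. For Hsp90aa1 they were Ncl (0.973), Psmd4 (0.967) and Hnrnpa2b1 (0.962), and for Hsph1 Fam114a2 (0.989), Srsf6 (0.987) and Kif3c (0.985). Pdia3 was nearest to Tmx2 (0.889), Rab10os (0.887) and Mettl3 (0.859), and Atf6 to Dgki (0.893), Hspbap1 (0.852) and Pcnx4 (0.833). For the scarcer Pdia4 and Xbp1, which did not reach 400 UMIs in every class, the nearest were Tmem170b (0.922) and Ahctf1 (0.93). No member was among the 3 genes most like another member.

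**Figure D5:**
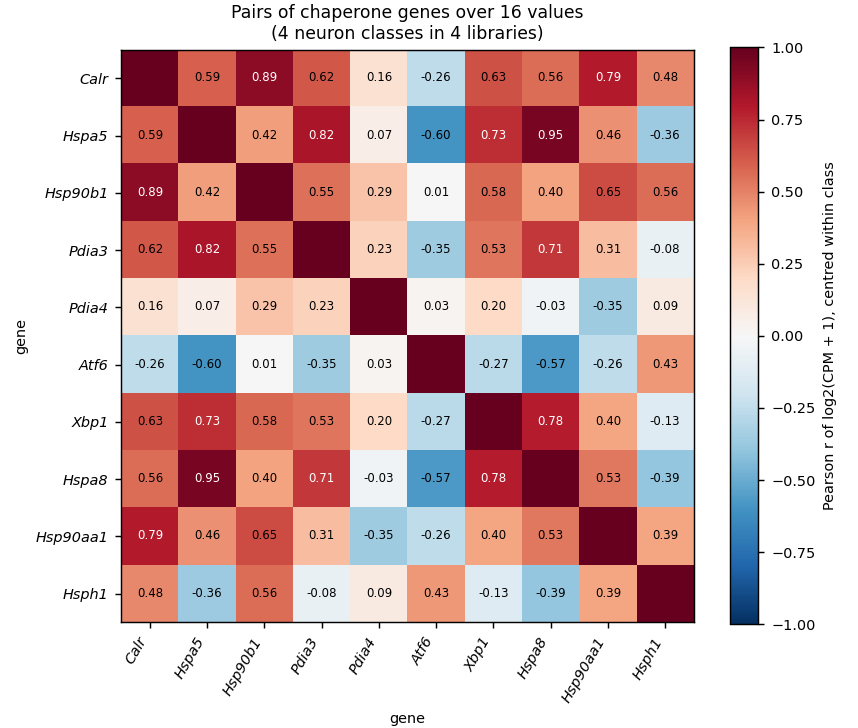
Pearson r of log2(CPM + 1), centred within class, for every pair of the 10 genes over 16 values (colour scale from -1 to 1, blue to red). Hspa5 and Hspa8 form the reddest pair at 0.946, and Atf6 is blue against both.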

How the data were processed

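The authors deposited raw UMI counts for each gene in each barcode. Frozen tissue gave the nuclei, and libraries were made by the Chromium 3′ chemistry of 10x, per the labels' protocols. Cell Ranger 5.0.1 made the matrices, per the file headers, whereas version 3.1.0 and the build mm10 stand in the submitters' processing notes. Intron reads and strand use are not given in the sources used here. Counted introns give long genes more UMIs. Gene coordinates come from GENCODE M21 (32158 of 32285 identifiers matched).

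Nuclei with at least 500 genes, 1000 UMIs and under 5% mitochondrial UMIs were kept. Doublets were scored against 2 simulated pairs per nucleus and left out at 0.8% per 1000 nuclei (716 in the knock-in with exercise, 815 in the knock-in without exercise, 379 in WT with exercise and 1007 in WT without exercise), leaving 8745, 9278, 6508 and 10213. Clustering (scanpy 1.11.5, 2000 variable genes, 30 components, 15 neighbours, resolution 1.0, no integration) gave 36 clusters, named from markers, of which 12 stayed unnamed. Counts of each class were summed within each library, and genes with at least 50 UMIs over the 4 libraries were counted. Intervals used scipy 1.17.1 and TMM factors edgeR 4.0.16, which served scaling only. No test was made, since each group has 1 library. The ratio and its interval were checked on simulated data. All 10 members are named. The genes of the 8 pathway lists were ranked together, and the 4 highest and 4 lowest ratios of each comparison were taken in CA1 and in granule neurons. Only genes with at least 100 UMIs over both libraries were ranked. The text gives a part of those taken. The members and lists were chosen with earlier results of these data known.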

Additional observations from a re-analysis of the deposited data

Results flagged for a closer look

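For Hsph1 the log2 ratio of the knock-in with exercise over the knock-in without exercise was 0.86 in CA1 and 1.06 in inhibitory neurons, against -0.57 and -0.64 for WT with exercise over WT without exercise in the same classes. It was singled out because the exercise ratio was past the fold in opposite directions in the 2 genotypes. The difference between the genotypes was not tested, since each value rests on 2 libraries. Counted per nucleus, the WT ratios were -0.34 in CA1 and -0.37 in inhibitory neurons, both within the fold, so that the ratios were past it in the knock-in and not in WT.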

How the results depend on the processing

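No paired analysis was possible because each group has 1 library. Of 2108 ratios of single members in the 4 neuron classes recomputed under 13 other settings and 1 chosen after seeing the data (granule nuclei of the shared cluster only), 1869 moved by less than their counting interval, 239 moved further and 0 of those past the fold changed sign. The moves were unevenly spread, with 83 of 160 in UMIs per nucleus, 52 under thinning and 0 under the filters on nuclei. The settings without a filter on low counts and with at least 200 UMIs in the class change only which genes are counted. Their 160 and 156 unmoved ratios were therefore fixed in advance. In UMIs per nucleus in glia, also chosen after seeing the data, 9 ratios past the fold changed sign. For exercise in the knock-in these were Calr at 0.0018 and Xbp1 at 0.25 in oligodendrocytes, Calr at 0.0023, Hsp90b1 at 0.28 and Hsp90aa1 at 0.29 in the cluster with astrocyte markers, and Hsp90b1 at 0.29, Pdia3 at 0.40 and Hsp90aa1 at 0.42 in microglia. For genotype with exercise it was Hspa5 at 0.12 in oligodendrocytes. In UMIs per nucleus in place of CPM, the members' median for exercise in the knock-in was 0.39, 0.56, 0.53 and 0.51 in granule, CA1, CA3 and inhibitory neurons (-0.18, 0.16, 0.15 and -0.10 in CPM), for exercise in WT -0.21, -0.24, -0.11 and -0.15 (-0.33, -0.47, -0.43 and -0.41), and for genotype without exercise -0.38, -0.26, -0.40 and -0.41 in the same 4 classes (0.044, -0.014, -0.21 and -0.0028). Without mitochondrial genes and the 50 highest genes in the total, exercise in the knock-in gave 0.011 in CA1 neurons and genotype with exercise -0.079 in granule neurons (0.027 in CPM). In granule neurons that comparison's median was -0.14 with TMM factors, -0.15 with median-of-ratios factors and -0.17 relative to the median of all genes. Thinned to 1500 UMIs, genotype without exercise gave 0.33 in inhibitory neurons. The cause of these moves was not tested. Depth limits microglia most, with 24 nuclei in WT with exercise.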
